A study of Mus musculus with 10 samples.

Results

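The genes described here, called members below, are 9 kidney genes of water and urea transport and its control, chosen by name. They are the water channels Aqp1, Aqp2, Aqp3, Aqp4, Aqp6, Aqp7 and Aqp11, the vasopressin receptor Avpr2 and the urea transporter Slc14a2. Not all of the channels have a known part in concentrating the urine. All 9 were among the 13299 genes of the deposited table, and all 9 were among the 13236 genes that passed the filter on low values. Levels were set side by side in the whole kidneys of 5 heterozygous Rragc S74N/+ mice and 5 wild-type Rragc +/+ mice, all 1.5 years of age. Rragc encodes RagC, a GTPase that tells mTORC1, the main growth-promoting kinase complex, that nutrients are at hand, and S74N is an activating change that the study knocked into the mouse germ line, so that every cell of the heterozygous animals carried it on 1 allele. The control mice carried no changed allele, and the study kept both genotypes on standard chow. The question was whether lifelong, moderately raised nutrient signalling altered the transcripts for water and urea transport in the old kidney.

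Water follows salt and urea out of the tubule only where the cell membranes hold water channels. Aqp1 carries water across the proximal tubule and the thin descending limb. In principal cells of the collecting duct, vasopressin binds Avpr2, cyclic AMP rises, and vesicles loaded with Aqp2 fuse with the membrane that faces the urine, while Aqp3 and Aqp4 let the water out on the blood side. Slc14a2 encodes the urea transporters of the inner medulla, whose urea helps to draw water from the duct. Aqp6 sits in intracellular vesicles of acid-secreting intercalated cells, Aqp7 carries water and glycerol in the brush border of the straight proximal tubule, and Aqp11 lies in the endoplasmic reticulum of proximal tubule cells.

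Of the 9 genes, 1 passed the threshold of an adjusted p under 0.05 (limma, Benjamini-Hochberg over all tested genes), and that gene, Aqp6, was lower in Rragc S74N/+ kidneys. Among all 13236 tested genes, 2.58% passed as lower and 3.45% as higher. The sign of the log2 fold change was negative in 6 members (Aqp1, Aqp3, Aqp4, Aqp6, Aqp7 and Aqp11) and positive in 3 (Aqp2, Avpr2 and Slc14a2). The median over the 9 was -0.26, against -0.01 over all tested genes. For Aqp2, Aqp4 and Slc14a2 the differences between mice of 1 genotype were large beside the difference between genotypes.

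The promoters of the 4 channels to which the results below return most often are shown here, each as the 250 bases before a transcription start in RefSeq on build GRCm38.p6, 5′ to 3′ on the strand of the gene. The Aqp2 sequence is chr15:99578806-99579055 on the plus strand, and the Aqp6 sequence is chr15:99600950-99601199 on the plus strand. Both belong to a run of aquaporin genes on 1 chromosome. The Aqp7 sequence is chr4:41048137-41048386 on the minus strand, and the Aqp11 sequence is chr7:97738248-97738497 on the minus strand. Capitals mark letters of the motifs searched.
Aqp2: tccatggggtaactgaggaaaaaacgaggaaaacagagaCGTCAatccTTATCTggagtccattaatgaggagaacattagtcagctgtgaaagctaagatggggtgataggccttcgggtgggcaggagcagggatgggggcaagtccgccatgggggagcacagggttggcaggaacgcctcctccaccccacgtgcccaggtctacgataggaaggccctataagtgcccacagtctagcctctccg
Aqp6: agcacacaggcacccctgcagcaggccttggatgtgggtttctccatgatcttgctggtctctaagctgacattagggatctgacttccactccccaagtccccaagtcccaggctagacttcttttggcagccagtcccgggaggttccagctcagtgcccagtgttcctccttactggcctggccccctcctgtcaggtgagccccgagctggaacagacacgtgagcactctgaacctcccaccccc
Aqp7: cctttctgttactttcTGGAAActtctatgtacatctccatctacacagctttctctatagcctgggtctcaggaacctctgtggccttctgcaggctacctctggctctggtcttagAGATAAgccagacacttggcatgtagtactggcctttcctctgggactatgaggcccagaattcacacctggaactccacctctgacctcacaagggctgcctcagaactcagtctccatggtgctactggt
Aqp11: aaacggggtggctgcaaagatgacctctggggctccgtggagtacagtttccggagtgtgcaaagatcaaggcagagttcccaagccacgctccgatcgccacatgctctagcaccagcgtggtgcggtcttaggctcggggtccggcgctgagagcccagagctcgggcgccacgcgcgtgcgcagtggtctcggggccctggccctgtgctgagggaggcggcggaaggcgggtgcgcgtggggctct

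The motifs were searched on both strands in windows of this length. They were the cyclic AMP response element TGACGTCA, its core TGACG (contained in the full element), the GATA factor motif AGATAA, the TGGAAA core of the tonicity element bound by Nfat5, and the TATA motif TATAAA. The Aqp2 window held TGACG on the reverse strand 211 bases before the start and AGATAA on the reverse strand 202 bases before it. The Aqp7 window held TGGAAA 234 bases and AGATAA 132 bases before the start, while a window for the other RefSeq start of Aqp7 held none of these letters, and neither did those of Aqp1, Aqp6 and Aqp11. Aqp3 had TATAAA 29 bases before the start, and Avpr2 had it on the reverse strand 45 bases before. Such matches are common: of 32851 RefSeq promoter windows, 17.8% held TGACG, 9.99% AGATAA, 18.6% TGGAAA, 12.4% TATAAA and 1.55% the full TGACGTCA. The RefSeq starts of Aqp6 and Aqp1 lay at no transcript start of the GENCODE annotation used for comparison, so those windows are less certain.

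Before the members are taken in turn, 3 libraries have to be named. They were set apart by their level of S100a6, after its values were seen. S100a6, a calcium-binding protein on the list of thin limb and inner medulla markers, had 553.9 normalized counts in Rragc +/+ replicate 3, 673.3 in Rragc S74N/+ replicate 1 and 489.5 in Rragc S74N/+ replicate 2, against 120.5 to 273 in the other 7 libraries. Over 8 markers of that list that are not members and passed the filter, the mean deviation on the log2 scale was 0.963, 0.628 and 0.649 in these libraries, and it lay between -1.11 and 0.394 in the others. The highest of the others was Rragc S74N/+ replicate 3, and not every gene of the list picked out the 3 libraries. Cryab had 159.5 normalized counts in Rragc S74N/+ replicate 1 against 289.2 in Rragc +/+ replicate 2. Slc14a2 was higher in Rragc S74N/+ replicate 3 (72.98) than in Rragc S74N/+ replicate 2 (61.06) or Rragc +/+ replicate 3 (72.0). The summed normalized count of the list ran from 4296 to 5691 in Rragc +/+ and from 3536 to 5560 in Rragc S74N/+ kidneys, and 0 of its 10 tested genes passed the threshold by limma (1 at an unadjusted p under 0.05, 0 by edgeR and 0 by DESeq2). The members Aqp1 and Slc14a2 are on this list. Most of the sum was Aqp1 (3848 to 4944 in Rragc +/+ and 2386 to 4915 in Rragc S74N/+), so it says little of the medulla. How much medulla entered each extract is not given in the sources used here, and the part of it in the results was not tested. Each member is therefore given with and without these libraries. Fewer mice remain in each group without them. They include the lowest Rragc S74N/+ value of Aqp1, Aqp7 and Aqp11 and the highest Rragc +/+ value of Aqp6. For Avpr2 they include both of these extremes. Part of any shift in these members thus follows from which libraries were left out. In whole tissue, fewer cells of a type cannot be told apart from less RNA per cell.

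Aqp2, the channel that vasopressin moves to the membrane, was the most variable of the abundant members. Its normalized counts in Rragc +/+ replicates 1 to 5 were 316.6, 659.6, 2145, 438.4 and 439.7. In Rragc S74N/+ replicates 1 to 5 they were 1594, 1568, 713.8, 373.8 and 378.9. The 3 libraries with the most S100a6 were also the 3 with the most Aqp2, and the ranges of the genotypes overlapped almost wholly. The means were 800.0 ± 762 in Rragc +/+ and 925.7 ± 614 in Rragc S74N/+ kidneys (SD, n = 5 each), a log2 fold change of 0.31 with a 95% interval from -0.71 to 1.33 (limma, adjusted p = 0.73). By exact two-sided permutation of the normalized counts, p was 0.87. Without the 3 libraries the log2 fold change was 0.06, but that fit leaves out the 3 highest Aqp2 values and is no independent check. The interval leaves room for a change of either sign, so similarity of the genotypes was not shown.

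Avpr2, the receptor that starts the response, did not share the excess of all 3 libraries. Its normalized counts were 53.7, 59.3, 111.4, 57.64 and 32.83 in Rragc +/+ replicates 1 to 5 and 54.09, 84.33, 73.98, 90.64 and 81.61 in Rragc S74N/+ replicates 1 to 5. Rragc +/+ replicate 3 was the highest of all, and Rragc S74N/+ replicate 1 was the lowest of its group. Between genotypes the log2 scale showed 0.37 ± 0.26 (SE; 95% interval -0.17 to 0.92; limma, adjusted p = 0.38). It was 0.71 without the 3 libraries (limma, adjusted p = 0.077).

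Slc14a2 spread most widely of all 9 genes, with 57.1 times as many normalized counts in the highest as in the lowest library. The values were 16.78, 28.09, 72.0, 7.86 and 32.83 in Rragc +/+ replicates 1 to 5 and 111, 61.06, 72.98, 16.3 and 1.943 in Rragc S74N/+ replicates 1 to 5. Rragc S74N/+ replicate 5 rested on 2 reads (exact Poisson 95% interval 0.242 to 7.22 reads) and Rragc +/+ replicate 4 on 9 reads (4.12 to 17.1). The genotypes overlapped, and both the highest and the lowest library were Rragc S74N/+. Its log2 fold change was 0.24 ± 0.79 (SE; 95% interval -1.43 to 1.91), short of the threshold (limma, adjusted p = 0.88), and its sign turned to -0.35 without the 3 libraries. It also turned when 1 library was left out, to -0.14 without Rragc +/+ replicate 4 and to -0.23, -0.01 and -0.08 without Rragc S74N/+ replicates 1, 2 and 3.

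Aqp3 and Aqp4, the exit channels of the principal cell, had lower means in Rragc S74N/+ kidneys, but neither passed the threshold. Aqp3 had 155.5, 195.6, 208.3, 135.4 and 123.4 normalized counts in Rragc +/+ replicates 1 to 5 and 100.7, 184.2, 146.0, 106.9 and 82.58 in Rragc S74N/+ replicates 1 to 5. Of the Rragc S74N/+ values, 3 lay below every Rragc +/+ value and the other 2 within their range. For Aqp3 the log2 fold change was -0.43 ± 0.21 (SE; limma, adjusted p = 0.22), and it was -0.46 without the 3 libraries (limma, adjusted p = 0.19).

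Aqp4 separated the groups except for 1 library. Its normalized counts were 54.82, 72.82, 105.6, 79.47 and 62.68 in Rragc +/+ replicates 1 to 5. They were 121.2, 43.62, 30.99, 29.54 and 2.915 in Rragc S74N/+ replicates 1 to 5, where the lowest value stood for 3 reads (exact Poisson 95% interval 0.619 to 8.77 reads). Rragc S74N/+ replicate 1, one of the 3 libraries rich in S100a6, exceeded every Rragc +/+ value, and the other 4 lay below all of them. The means were 75.08 ± 19.5 and 45.66 ± 44.8 (SD, n = 5 each). On the log2 scale the difference was -1.35 ± 0.60 (SE; 95% interval -2.63 to -0.07), short of the threshold (limma, adjusted p = 0.17; exact permutation p = 0.21). It was -1.87 without Rragc S74N/+ replicate 1 (limma, adjusted p = 0.02) and -2.12 without the 3 libraries (limma, adjusted p = 0.014). The first of these fits leaves out the highest Rragc S74N/+ value, so a larger difference was bound to follow. The second leaves out the same value and keeps the library with 3 reads. The Aqp4 difference shrank to -0.63 without Rragc S74N/+ replicate 5, the library with 3 reads (limma, adjusted p = 0.29). The count models on the recovered reads gave -0.70 (edgeR, adjusted p = 0.40) and -0.72 (DESeq2, adjusted p = 0.56). With the mean of the thin limb and inner medulla markers as a covariate it was -1.30 (limma, adjusted p = 0.076).

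Markers of the principal cell give the background for these genes. Of 8 tested principal cell markers, 0 were higher and 1 was lower, and the median log2 fold change was 0.16. The summed normalized count of the list ran from 1088 to 2132 in Rragc +/+ and from 1093 to 2137 in Rragc S74N/+ kidneys, with all 8 markers in the table. Fxyd4, a regulator of the sodium pump, had a log2 fold change of 0.31 (limma, adjusted p = 0.68), and Hsd11b2, which shields the mineralocorticoid receptor from corticosterone, one of 0.17 (limma, adjusted p = 0.69). The marker that fell was Rnf186, a ubiquitin ligase, with 109.1 ± 24.5 normalized counts in Rragc +/+ and 64.05 ± 10.4 in Rragc S74N/+ kidneys (SD, n = 5 each; log2 fold change -0.75; limma, adjusted p = 0.027). Its call was lost without Rragc +/+ replicate 1, 2 or 3 and without the 3 libraries.

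**Figure D1:**
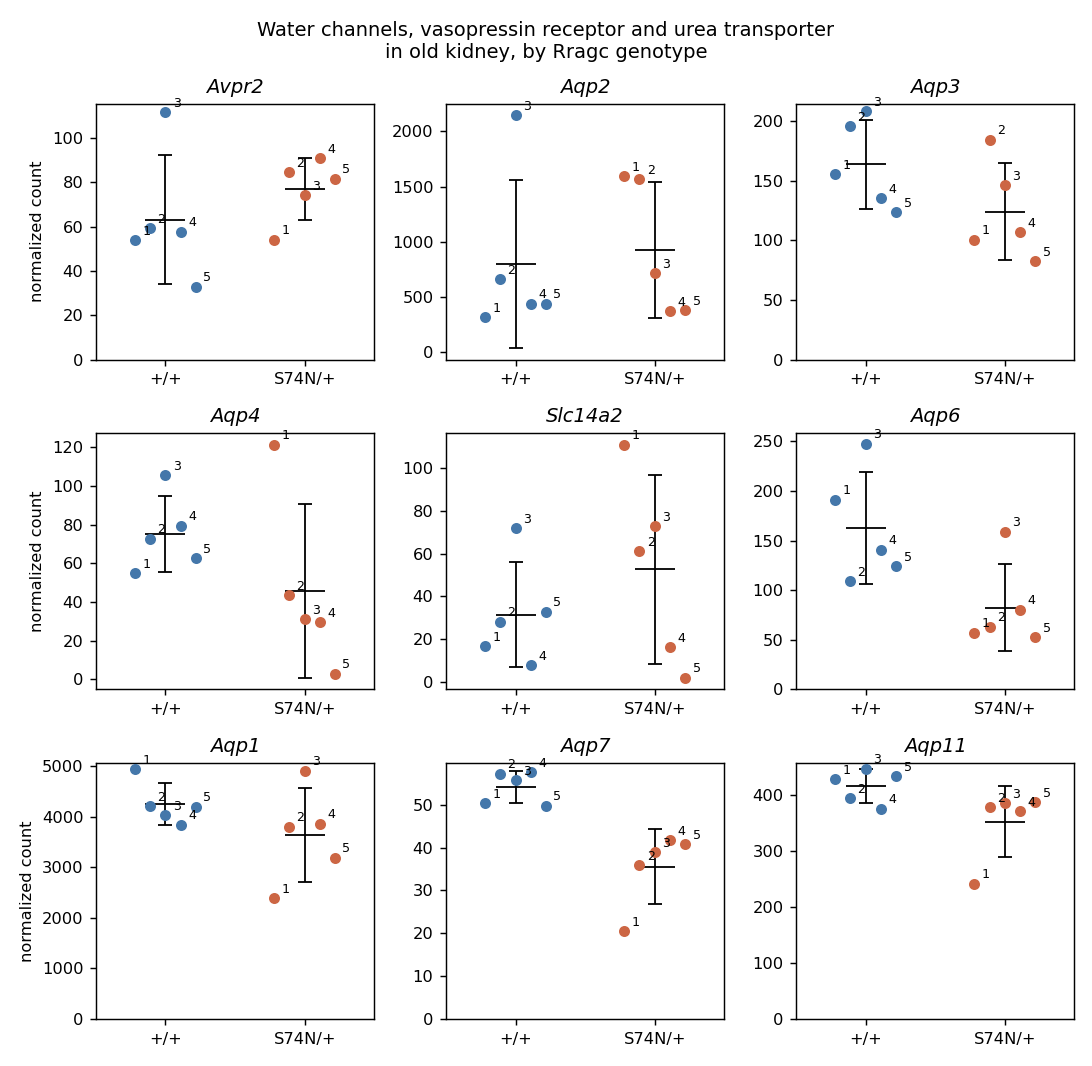
Normalized counts (y axes, linear) of the 9 genes in each kidney, by Rragc genotype, with the replicate number beside each point; the horizontal mark and bars are the mean and SD of 5 mice. The groups do not overlap for Aqp7, while Aqp2 and Slc14a2 spread widely within both genotypes and Aqp4 is split by Rragc S74N/+ replicate 1.

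Aqp6 was the member with a called difference. Rragc +/+ replicates 1 to 5 had 191.3, 109.2, 247.7, 140.6 and 124.4 normalized counts. Rragc S74N/+ replicates 1 to 5 had 56.88, 63.0, 159.0, 80.46 and 52.46. The only overlap came from Rragc S74N/+ replicate 3, and the other 4 values of that group lay below the lowest Rragc +/+ value. The means were 162.6 ± 56.7 and 82.35 ± 44.1 (SD, n = 5 each), a log2 fold change of -1.04 ± 0.28 (SE) with a 95% interval from -1.63 to -0.44, or 0.488 of the Rragc +/+ level (limma, adjusted p = 0.04; exact permutation p = 0.04 before adjustment). The adjusted p was close to the threshold, and the call did not outlast most ways of removing a library: it was lost without Rragc +/+ replicate 1, 2, 3 or 4 and without Rragc S74N/+ replicate 2, 4 or 5, with log2 fold changes between -1.30 and -0.87 over all 10 such fits. Without the 3 libraries rich in S100a6 the log2 fold change was -0.65 (limma, adjusted p = 0.16). With the mean of the thin limb and inner medulla markers as a covariate it was -1.03, and the call was kept (limma, adjusted p = 0.035). On the recovered reads, edgeR's quasi-likelihood test gave -0.97 (adjusted p = 0.056) and DESeq2 gave -0.98 (adjusted p = 0.018). Over all fits run the adjusted p lay between 0.00496 and 0.16, and the sign was negative in each.

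Other intercalated cell genes moved in both directions beside Aqp6. Slc4a1, the chloride and bicarbonate exchanger of the acid-secreting type A cells and of erythrocytes, had 99.57 to 134.3 normalized counts in Rragc +/+ and 29.15 to 88.98 in Rragc S74N/+ kidneys, a log2 fold change of -1.19 (limma, adjusted p = 0.00918). Oxgr1, the receptor for 2-oxoglutarate of the base-secreting cells, fell from 34.33 ± 8.95 to 13.84 ± 2.34 (SD, n = 5 each; log2 fold change -1.23; limma, adjusted p = 0.014). Slc26a4, the pendrin exchanger of the same base-secreting cells, rose from 57.54 ± 10.2 to 96.91 ± 24.2 (log2 fold change 0.72; limma, adjusted p = 0.04), a call kept in only 2 of 10 fits that left out 1 library. Over the list of 10 intercalated cell markers, all tested, 1 was higher and 2 were lower, the median log2 fold change was -0.29, and the sums ran from 723.8 to 899.5 in Rragc +/+ and from 703.4 to 848.6 in Rragc S74N/+ kidneys. The part of the number of intercalated cells in the Aqp6 difference was not tested.

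Aqp7, the water and glycerol channel of the straight proximal tubule, was the 1 member whose groups did not overlap. This pattern, lower in all Rragc S74N/+ than in any Rragc +/+ library, held for 4.01% of all tested genes. Rragc +/+ replicates 1 to 5 had 50.34, 57.22, 55.68, 57.64 and 49.75 normalized counts, a spread of only 7.02% of the mean. Rragc S74N/+ replicates 1 to 5 had 20.52, 35.86, 38.99, 41.76 and 40.81, of which replicate 1 lay well below the rest. The log2 fold change was -0.63 ± 0.21 (SE; 95% interval -1.08 to -0.18) and did not pass after adjustment over all genes (limma, adjusted p = 0.083). The exact permutation test of this single gene gave p = 0.0079, the smallest value that 252 allocations allow, before any adjustment. Every gene whose groups do not overlap reaches this value, so it only restates the lack of overlap. Without the 3 libraries the log2 fold change was -0.40 (limma, adjusted p = 0.32). With the inner medulla markers as a covariate it was -0.64 (limma, adjusted p = 0.078).

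Aqp1 and Aqp11 differed less. Aqp1 had 4944, 4211, 4035, 3848 and 4202 normalized counts in Rragc +/+ replicates 1 to 5 and 2386, 3810, 4915, 3864 and 3195 in Rragc S74N/+ replicates 1 to 5. The groups overlapped, and the Rragc S74N/+ mice spread more widely (25.6% against 9.8% of the mean). The log2 fold change was -0.26 ± 0.16 (SE; limma, adjusted p = 0.32), and without the 3 libraries it was -0.12. Aqp1 is also a protein of the erythrocyte membrane. The summed count of 6 erythrocyte genes, among them Aqp1 itself, Slc4a1 and the globins, ran from 15900 to 32270 in Rragc +/+ and from 5163 to 17530 in Rragc S74N/+ kidneys. Of these genes 0 were called higher and 1 lower, which was Slc4a1, and the median log2 fold change was -1.04. Hbb-bs, Hbb-bt, Hba-a1 and Hba-a2 had -1.45, -0.87, -1.62 and -0.88 (limma, adjusted p = 0.10, 0.061, 0.078 and 0.091). The part of blood in the Aqp1 and Slc4a1 values was not tested.

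Aqp11 had 428.5, 394.3, 447.3, 375.5 and 433.8 normalized counts in Rragc +/+ replicates 1 to 5 and 241.5, 378.0, 385.9, 370.7 and 387.7 in Rragc S74N/+ replicates 1 to 5. Apart from Rragc S74N/+ replicate 1 the values lay close together. A log2 fold change of -0.26 ± 0.14 (SE) fell short of the threshold (limma, adjusted p = 0.25; exact permutation p = 0.04 before adjustment), and without the 3 libraries it was -0.09. With the inner medulla markers as a covariate, Aqp1 and Aqp11 both had -0.26. Markers of the convoluted proximal tubule had 0 genes higher and 2 lower of 8, with a median of -0.15, and of 7 markers of the straight part 0 passed in either direction by limma (0 at an unadjusted p under 0.05, 0 by edgeR and 0 by DESeq2), with a median of 0.03. The straight-part sum ran from 12370 to 14950 in Rragc +/+ and from 9384 to 17160 in Rragc S74N/+ kidneys.

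**Figure D2:**
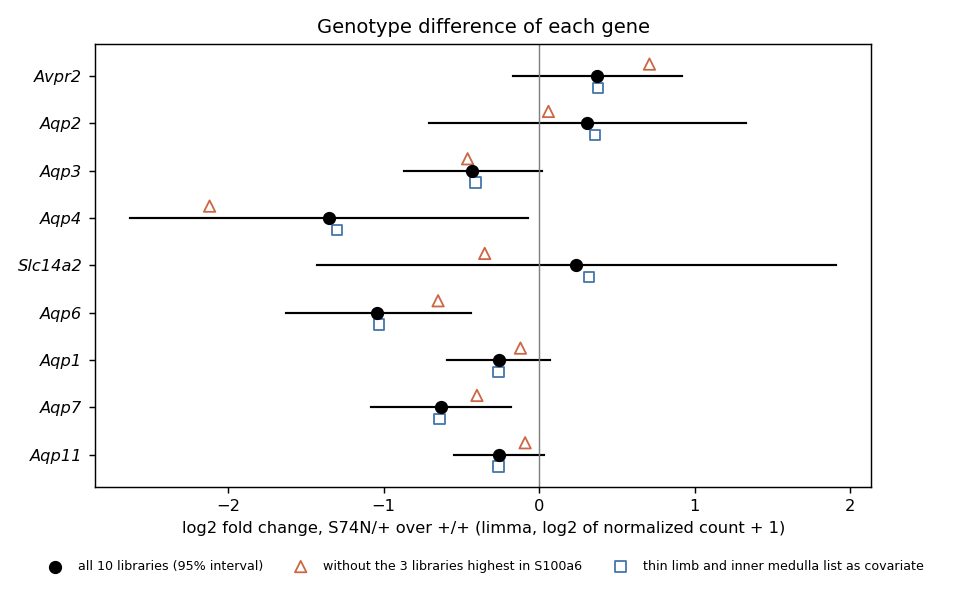
Log2 fold change of each gene (x axis, Rragc S74N/+ over Rragc +/+, log2 of normalized count + 1); filled circles and lines give the limma value and 95% interval from all 10 libraries, triangles the value without the 3 libraries highest in S100a6, squares the value with the thin limb and inner medulla list as a covariate. Aqp4 moves from -1.35 to -2.12 and Aqp6 from -1.04 to -0.65 without these libraries, and Slc14a2 changes sign. With the covariate, Aqp4 is at -1.30 and Aqp6 at -1.03.

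The order of the levels was dominated by Aqp1. A 3′ kit yields about 1 read for a transcript whatever its length, so counts of different genes were compared as they stand. Over the 10 kidneys the mean normalized count was 3941 for Aqp1, 69.5% of the summed count of the 9 genes, then 862.8 for Aqp2, 384.3 for Aqp11, 143.8 for Aqp3 and 122.5 for Aqp6. Below these came Avpr2 with 69.95, Aqp4 with 60.37, Aqp7 with 44.86 and Slc14a2 with 42.08. The ranges over the libraries did not overlap between Aqp1 and Aqp2 or between Aqp11 and Aqp3. All other neighbours in the order overlapped and did not differ beyond their spread. Aqp2, for one, exceeded Aqp11 in 8 of 10 libraries.

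Some members varied together among mice of the same genotype, and these pairs followed the nephron only in part. After subtraction of each genotype's mean, Aqp2 varied with Slc14a2 (Pearson r = 0.76 across 10 libraries) and Aqp4 with Slc14a2 (r = 0.85), while Aqp7 varied with Aqp11 (r = 0.84) and Aqp1 with Aqp11 (r = 0.77). Aqp2 also varied with S100a6 (r = 0.90), Fxyd4 (r = 0.89), Akr1b3 (r = 0.89) and Cryab (r = 0.81), while its r with Hsd11b2 was -0.17. Hsd11b2, though a principal cell marker, varied instead with Aqp7 (r = 0.84) and Aqp1 (r = 0.79). Avpr2 had an r of 0.51 with both Aqp3 and Aqp7, against 0.36 with Aqp2, -0.10 with Aqp4 and -0.03 with Slc14a2, and the member closest to Aqp6 was Aqp1 (r = 0.64). These are descriptions over libraries in which both genes share the size factor and the piece of tissue. The 3 libraries named above were high in Aqp2, S100a6, Fxyd4 and Akr1b3, and Rragc S74N/+ replicate 1 was the lowest for Aqp1, Aqp7 and Aqp11.

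**Figure D3:**
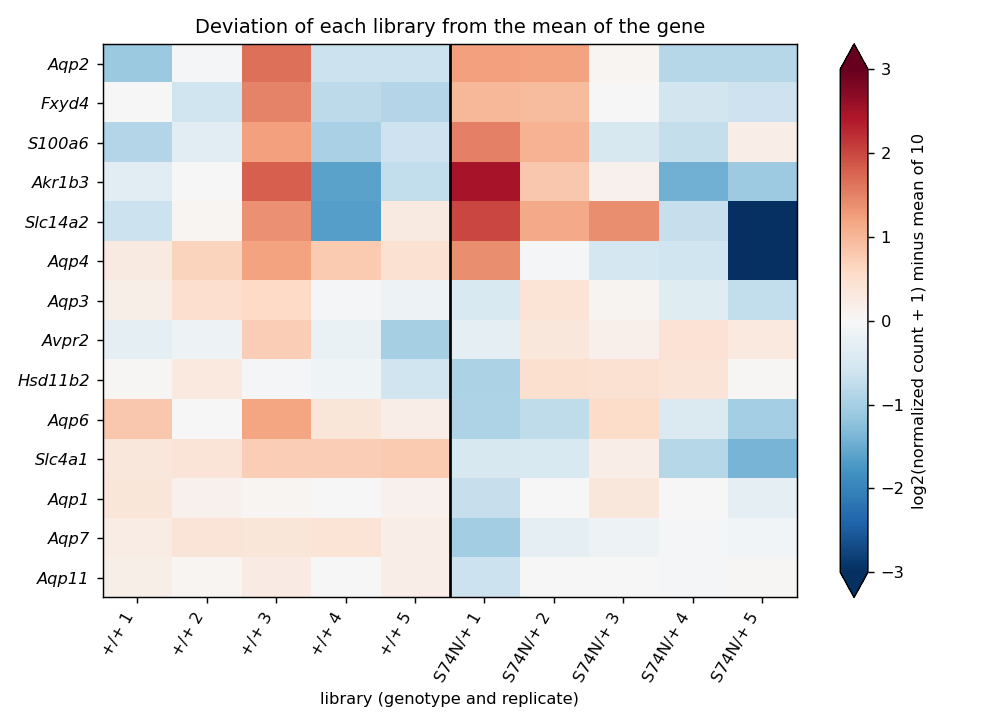
Deviation of each library (columns, 5 Rragc +/+ then 5 Rragc S74N/+) from the mean of each gene (rows), as log2(normalized count + 1) in colour, with red above and blue below the mean and the scale ending at 3. Rragc +/+ replicate 3 and Rragc S74N/+ replicates 1 and 2 are red for Aqp2, Fxyd4, S100a6, Akr1b3 and Slc14a2, whereas Aqp1, Aqp7 and Aqp11 are blue in Rragc S74N/+ replicate 1.

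The genes of the whole table with the most similar pattern to each member, up to 3 for each, by the same genotype-centred r over 10 libraries, were as follows. Aqp2 was closest to Plet1 (r = 0.97), Muc20 (0.96) and Dennd2d (0.96), and Slc14a2 to Rab11fip1 (0.94), Aldoc (0.94) and Crip2 (0.94). Aqp4 was closest to Grhl2 (0.98), Tnfrsf1b (0.97) and Gsto1 (0.95), and Aqp3 to Zfp36l1 (0.95) and Agrn (0.94). Grhl2 encodes an epithelial transcription factor. Aqp6 was closest to Sun1 (0.94), Top3b (0.92) and Dcaf12l1 (0.89), and Avpr2 to Pcmtd2 (0.96), Tmem161b (0.94) and Mtrf1l (0.93). Aqp1 was closest to Enkd1 (0.97), Parl (0.97) and Smco4 (0.96), and Aqp11 to Aimp1 (0.98), Snx18 (0.97) and Rab18 (0.97). Aqp7 was closest to the pseudogene Cox7c-ps1 (0.99), whose reads may be shared with its parent gene, to Pccb (0.99), an enzyme of propionate breakdown, and to Ccdc12 (0.98). The closest gene had an r of at least 0.94 for each of the 9 members, with 10 libraries and the whole table searched. Of the similar genes named here, Top3b and Cox7c-ps1 themselves passed the threshold, with log2 fold changes of -0.48 (limma, adjusted p = 0.03) and -1.34 (limma, adjusted p = 0.042).

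Ratios of members within a library ask whether genes of 1 cell or 1 path differed in their response. Of 9 pairs tested by exact two-sided permutation, 0 passed after Benjamini-Hochberg adjustment and 2 had an unadjusted p under 0.05. The log2 ratio of Aqp7 to Aqp11 was -2.92 ± 0.19 in Rragc +/+ and -3.29 ± 0.14 in Rragc S74N/+ kidneys (SD, n = 5 each), a difference of -0.37 (exact permutation p = 0.0079, adjusted p = 0.071) with groups that did not overlap. That unadjusted p again only restates the lack of overlap. The log2 ratio of Aqp2 to Aqp4 was 3.05 ± 0.77 and 4.71 ± 1.23, a difference of 1.66 (exact permutation p = 0.032, adjusted p = 0.14). Here Rragc +/+ replicate 3, with the highest Aqp2, reached 4.33 and overlapped the Rragc S74N/+ range of 3.62 to 6.60.

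For the other 7 pairs the adjusted p was 0.17 or more. Aqp1 to Aqp7 differed by 0.37 (95% interval by limma -0.02 to 0.77), Aqp2 to Aqp3 by 0.73 (-0.43 to 1.90) and Aqp3 to Aqp4 by 0.93 (-0.66 to 2.51). The ratio of Aqp1 to Aqp11, both of the proximal tubule, was 3.35 ± 0.14 in Rragc +/+ and 3.34 ± 0.22 in Rragc S74N/+ kidneys (SD, n = 5 each), and its 95% interval of the difference, -0.34 to 0.33, was the narrowest of the 7. The pairs of Avpr2 with Aqp2 (-1.26 to 1.39), Slc14a2 with Aqp2 (-1.58 to 1.45) and Slc14a2 with Avpr2 (-2.50 to 2.24) had intervals too wide to set a useful limit.

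**Figure D4:**
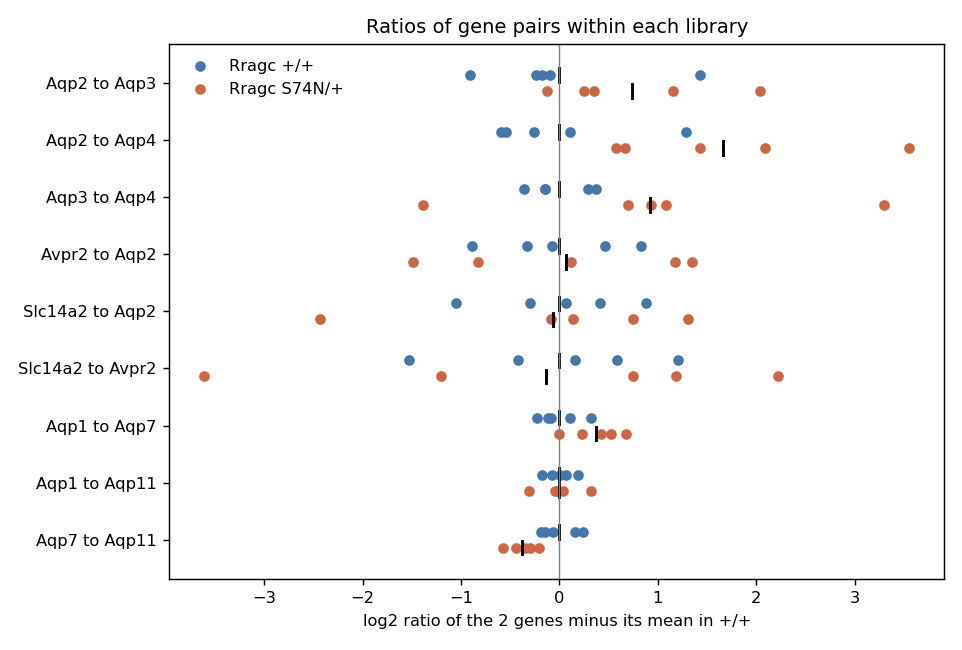
Log2 ratio of 2 genes in each library (x axis) minus the mean of that ratio in Rragc +/+, for 9 pairs; points are libraries and black marks the genotype means. Aqp7 to Aqp11 is lower in all 5 Rragc S74N/+ libraries, with a difference of -0.37, and Aqp2 to Aqp4 is shifted up by 1.66 with some overlap.

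The rest of the pathway was read from lists of genes named for their part in it, drawn up with earlier results of these data known. Together they named 115 genes, of which 103 were in the table and 101 were tested. Of these 101, 6 were higher and 2 lower, against 3.45% and 2.58% of all tested genes, and the median log2 fold change was -0.01. The share called lower was near that of all genes and the share called higher was above it, a difference that was not tested. Other water channels added little. Of 6 further genes listed, aquaporins and the urea transporter Slc14a1, 2 were in the table. Aqp8 had 16.26 ± 5.09 normalized counts in Rragc +/+ and 11.5 ± 2.8 in Rragc S74N/+ kidneys (SD, n = 5 each; limma, adjusted p = 0.40), and Slc14a1, at 0.995 to 19.2, was too low to test.

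Of 24 tested genes of vasopressin and cyclic AMP signalling, 2 were higher and 1 was lower, with a median of 0.02. Akap13, an anchoring protein for protein kinase A, rose from 345.9 ± 36.5 to 525.1 ± 51.8 normalized counts (SD, n = 5 each; log2 fold change 0.60; limma, adjusted p = 0.00825). Pde4d, a phosphodiesterase that degrades cyclic AMP, rose from 93.66 ± 12.9 to 153.2 ± 29.5 (log2 fold change 0.69; limma, adjusted p = 0.019), a call lost without Rragc +/+ replicate 1 or 4 and without the 3 libraries. Pde1a, a calmodulin-dependent phosphodiesterase, fell from 225.8 ± 33.1 to 130.6 ± 33.2 (log2 fold change -0.82; limma, adjusted p = 0.016), a call lost without Rragc +/+ replicate 4. The groups did not overlap for these 3 genes.

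The enzymes next to the receptor did not pass by limma. Adcy6, the adenylyl cyclase that answers Avpr2, had 97.05 ± 17.3 normalized counts in Rragc +/+ and 94.91 ± 22.9 in Rragc S74N/+ kidneys (SD, n = 5 each), with a log2 fold change of -0.05 (95% interval -0.43 to 0.34; limma, adjusted p = 0.90). Prkaca, the catalytic subunit of protein kinase A, had 175.2 ± 54.2 and 104.9 ± 30.8, with a log2 fold change of -0.74 (95% interval -1.28 to -0.21; limma, adjusted p = 0.085). For Prkaca, DESeq2 on the recovered reads gave an adjusted p of 0.04 and edgeR one of 0.075, and without the 3 libraries rich in S100a6 the log2 fold change was -0.40 (limma, adjusted p = 0.27).

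Of 11 tested genes for prostaglandin and calcium inputs, 0 were higher and 1 was lower, with a median of 0.15. That gene was Ptger3, a prostaglandin E2 receptor that lowers cyclic AMP. It had 40.79 to 95.71 normalized counts in Rragc +/+ and 8.744 to 30.99 in Rragc S74N/+ kidneys, and no library of 1 group reached the other. The log2 fold change was -2.05 ± 0.31 (SE; limma, adjusted p = 0.00148), and the gene passed in every fit run. Ptger3 is also a marker of the thick ascending limb. Of 8 markers of that limb, 4 were lower, Ptger3 itself among them, and 0 higher, with a median of -0.89. Their sums were 11430 to 15440 in Rragc +/+ against 5204 to 11390 in Rragc S74N/+ kidneys. Slc12a1 (log2 fold change 0.04) and Cldn16 (0.44) of the same list were not lower. The part of the thick limb in the Ptger3 difference was not tested.

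Of 32 genes for the trafficking and turnover of the Aqp2 protein, 3 were higher and 0 lower, with a median of -0.05. Myh9, a nonmuscle myosin, rose from 1190 ± 53.5 to 1683 ± 234 normalized counts (SD, n = 5 each; log2 fold change 0.49; limma, adjusted p = 0.016). Nedd4, a ubiquitin ligase, rose from 986.3 ± 120 to 1509 ± 339 (log2 fold change 0.60; limma, adjusted p = 0.021), a call lost without Rragc +/+ replicate 1 or 2. Anxa2, a membrane-binding annexin, rose from 238.8 ± 56.4 to 416.8 ± 155 (log2 fold change 0.76; limma, adjusted p = 0.034), a call kept in 4 of 10 fits that left out 1 library. None of these 3 is particular to principal cells. Of 6 fibroblast markers, 3 were higher and 0 lower in the same kidneys, with overlapping sums (805.2 to 1403 against 1313 to 2188). Of 6 macrophage markers, 2 were higher and 0 lower (sums 529.5 to 704.4 against 827 to 1084). Not every marker rose: Pdgfrb had a log2 fold change of -0.13 and Cd68 one of -0.34 (limma, adjusted p = 0.79 and 0.60). The part of these cells in the differences was not tested.

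Tonicity raises Nfat5, the factor that switches on the enzymes and carriers of organic osmolytes in the medulla. Of 16 tested genes of this response, 0 passed in either direction by limma (5 at an unadjusted p under 0.05, 0 by edgeR and 0 by DESeq2), with a median of 0.08. Nfat5 itself had 262.2 ± 55.0 normalized counts in Rragc +/+ and 303.3 ± 84.9 in Rragc S74N/+ kidneys (SD, n = 5 each; log2 fold change 0.19; limma, adjusted p = 0.53). Akr1b3, the aldose reductase that makes sorbitol, ran from 1.747 to 27.84 in Rragc +/+ and from 2.037 to 44.76 in Rragc S74N/+ kidneys (log2 fold change 0.35; limma, adjusted p = 0.81). It was high in the same 3 libraries as Aqp2.

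Of 17 tested transcription factors of the collecting duct, 1 was higher and 0 lower, with a median of -0.11. The gene that rose was Ehf, an epithelial ETS factor, from 51.78 ± 34.2 to 123.6 ± 59.9 normalized counts (SD, n = 5 each; log2 fold change 1.31; limma, adjusted p = 0.036). The groups overlapped, and the call was kept in 3 of 10 fits that left out 1 library.

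**Figure D5:**
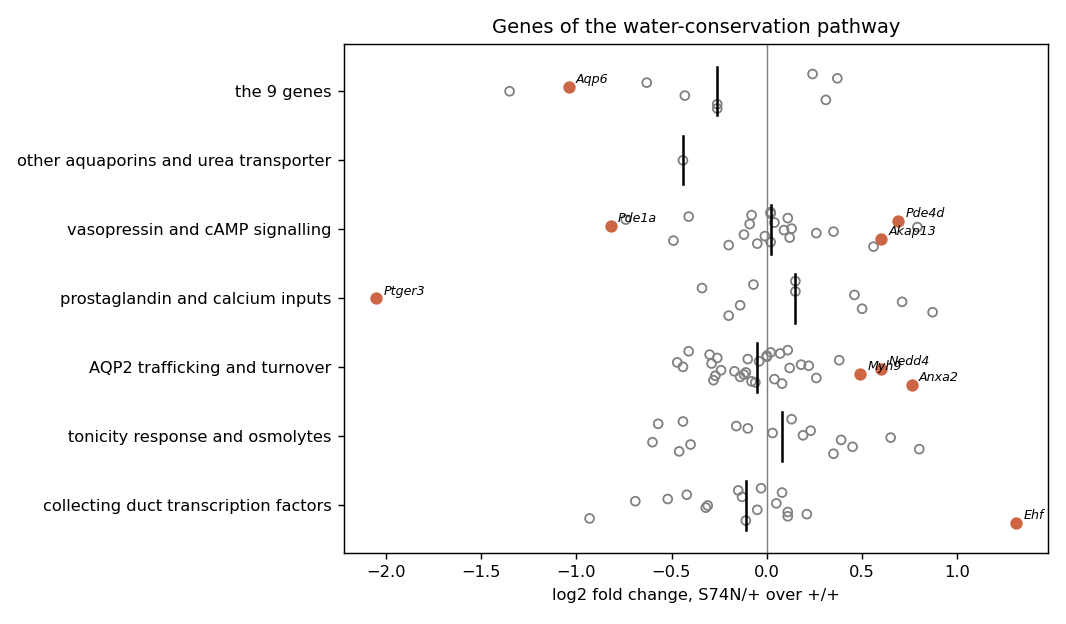
Log2 fold change (x axis, Rragc S74N/+ over Rragc +/+) of each tested gene in the pathway lists and in the set of 9 genes; filled points passed an adjusted p of 0.05 by limma, open points did not, and black bars are list medians. List medians lie between -0.44 and 0.15, and the filled points are Aqp6 and 8 genes of the other lists.

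Neighbouring segments give a scale for the members. In the distal convoluted tubule, which reclaims salt upstream of the collecting duct, 5 of 6 markers were lower and 0 higher, with a median of -1.38 and sums of 6292 to 7032 in Rragc +/+ against 2599 to 3609 in Rragc S74N/+ kidneys. In the connecting tubule 2 of 5 were lower and 0 higher, with a median of -0.44. No test compared these lists with the 9 members.

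The sample titles fall into a lower range of numbers, with 3 mice of each genotype, and a higher range, with 2 of each. The labels do not call these batches. The difference in mean log2 level of Aqp6 was -1.05 in the lower and -1.01 in the higher range, and for Aqp7 it was -0.81 and -0.37. Aqp3 gave -0.41 and -0.46, Aqp1 -0.30 and -0.19, and Aqp11 -0.37 and -0.09. For other members the ranges went apart. Aqp4 gave -0.44 and -2.71, Avpr2 -0.02 and 0.97, Aqp2 0.66 and -0.22, and Slc14a2 1.26 and -1.28. No test was run within a range, and the difference between the ranges was not tested. The 3 libraries rich in S100a6 all belong to the lower range.

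Facts of the whole series bear on these values in a few ways. Library depth was 4488493 to 5797251 reads, so 1 read was worth close to 1 normalized count and Slc14a2, the least abundant member, had 2 to 119 reads in a library. Rragc itself had 146.5 ± 42.7 normalized counts in Rragc +/+ and 123.7 ± 26.4 in Rragc S74N/+ kidneys (SD, n = 5 each; limma, adjusted p = 0.51), and 3′ reads do not tell the alleles apart, so the genotype labels were not checked by them. Markers of the convoluted proximal tubule were abundant, as in kidney, with sums between 32110 and 40700 normalized counts. All 4 Y-linked genes searched had reads in each of the 10 libraries. Nothing in the labels says whether the samples of a group were littermates, and p-values measure the spread between these mice only.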

How the data were processed

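Total RNA of whole kidney was made into 3′ end libraries (QuantSeq 3′ FWD); per the labels, 300 ng of RNA entered each library, with quality scores of 6.2 to 7. The authors aligned reads to GRCm39, as the submitters' processing notes name it, with TopHat2 2.0.10, Bowtie 1.0.0 and SAMtools 0.1.19, and used HTSeq 0.6.1 for strand-aware counting by gene. The deposited signal values are normalized counts, that is, reads divided by a size factor that the authors computed with DESeq2. The table listed 13299 genes with a mean of at least 4.37, and a gene that it does not list was not analysed here. All 10 columns were matched to samples by title, and the labels give the genotype but no replicate numbers, so replicates are numbered in order of deposit.

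Genes with at least 5 normalized counts in at least 5 samples were tested (13236 kept, 63 not) as log2(normalized count + 1) in limma 3.58.1 (R 4.3.3, variance trend, genotype as the only term, two-sided), with Benjamini-Hochberg adjustment over all of them. The added 1 shrinks the fold changes of low genes, but they are not lower bounds. Aqp4 had -1.35 on this scale against -0.70 by edgeR and -0.72 by DESeq2. Single genes and pairs were compared by exact permutation over 252 allocations (smallest p 0.00794). In all 10 columns 100% of values were whole reads within 0.01 of a read after division by the smallest step. edgeR 4.0.16 and DESeq2 1.42.0 were run on those reads as alternatives, beside other pseudocounts, filters, scalings, variance models, a block for the title range and leaving out each library. The covariate of inner medulla markers and the fits without 3 libraries were chosen after seeing the data. The fit was tested on simulated data. Poisson intervals cover counting error only.

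The text names all 9 members, every gene of the pathway lists past the threshold (at most 6 for each list), Adcy6, Prkaca, Nfat5, Akr1b3, Rragc and the 3 most similar genes of each member. One of these similar genes is not reported here. Single markers (S100a6, Fxyd4, Cryab, Hsd11b2, Rnf186, Slc4a1, Oxgr1 and Slc26a4) and Aqp8 and Slc14a1 were named after their values were seen. Members and lists were chosen with earlier results of these data known. Promoters were read from a RefSeq table on GRCm38.p6, which held usable entries for 7 of the 9 members, with 8 starts. These coordinates are not those of the build of the counts.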

Additional observations from a re-analysis of the deposited data

Results flagged for a closer look

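In each genotype, the highest and lowest library of each member and of the 9 ratios were compared with the nearest other library by Dixon's test at the 95% level. Of 36 groups searched, 4 held a library that stood apart, where chance gives about 1 in 20 groups, or 1.8. The value of 2145 normalized counts of Aqp2 in Rragc +/+ replicate 3 lay far above the other 4 of its group (316.6 to 659.6). In Rragc S74N/+ replicate 3, Aqp6 had 159.0 normalized counts against 52.46 to 80.46 in the other 4. In Rragc S74N/+ replicate 1, Aqp7 had 20.52 normalized counts against 35.86 to 41.76, and Aqp11 had 241.5 against 370.7 to 387.7, so that 1 library was the lowest of its group for both proximal tubule channels. The groups had been searched without regard to direction, and the cause of these values was not tested.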

How the results depend on the processing

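The count of members past the threshold was 1 (Aqp6) and fell to 0 with scaling to equal sums, without the variance trend, with robust eBayes and with edgeR; it lay between 0 and 2 when 1 library was left out. Over all genes the count of 798 moved to 391 without the variance trend and to 1351 with DESeq2, and lay between 311 and 902 when 1 library was left out. For the pathway lists 8 genes passed, 3 without the variance trend and 4 to 10 without 1 library. Scaling to equal sums shifted the median of all genes from -0.013 to 0.064 and called 943 genes, 718 higher and 225 lower. The sign of Slc14a2 turned without the 3 libraries highest in S100a6 (-0.35) and in 4 fits without 1 library (range -0.23 to 1.08). Adcy6 gave 0.03 with equal sums and -0.17 to 0.06 without 1 library, and Akr1b3 gave -0.14 without the 3 libraries and -0.23 to 0.84 without 1 library. The log2 ratio of Slc14a2 to Aqp2 was 0.03 with a pseudocount of 5, and ranged from -0.41 to 0.52 when 1 library was left out. Over the same fits, Aqp1 to Aqp11 ranged from -0.09 to 0.07, Avpr2 to Aqp2 from -0.26 to 0.45, and Slc14a2 to Avpr2 from -0.72 to 0.74. The other members kept their sign in every fit run. The labels name no pairs of mice, so the genotypes were compared as separate groups. Depth limits Aqp4 and Slc14a2 most, each with a library of under 4 reads.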
